A study of Mus musculus with 3 samples.

Results

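The hypoxia-inducible genes described here are 10 of the 21983 genes counted in mouse pup intestine: the hypoxia factor Hif1a and 9 genes known to respond to low oxygen, Vegfa, Ndrg1, Ddit4, Slc2a1, Egln3, Bnip3, Adm, Pfkfb3 and Car9. They were chosen by symbol, as repeated hypoxia was part of the disease model, with earlier results of these data known. All 10 were measured in all 3 libraries. Wild-type pups were studied in 3 groups with 1 RNA-seq library each, collected at 96 h. Control pups stayed with the dam, were given PBS and met neither hypoxia nor cold. NEC pups modelled necrotizing enterocolitis, an inflammatory disease of the newborn bowel: they were given PBS and 40 µl of 33% formula by gavage every 4 h, and every 12 h they spent 100 s in 99.9% nitrogen and then 10 min at 4 °C. PCI34051+NEC pups met the same feeding, hypoxia and cold and received PCI34051, a selective HDAC8 inhibitor, at 10 mg/kg per day for 5 days. The strain, the age of the pups, the time from the last hypoxia to collection and the number of pups behind each library are not stated in the labels.

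Cells sense oxygen through the hypoxia-inducible factors (HIFs). When oxygen is ample, prolyl hydroxylases mark the alpha subunit, the VHL ubiquitin ligase recognises the mark, and the subunit is destroyed; when oxygen falls, the subunit persists, pairs with ARNT and binds a short DNA core in its target genes. HIF-1 activity is therefore set largely at the protein, which was not measured here, and the mRNA of its targets is the usual readout. The surface epithelium of the gut normally works at low oxygen, and HIF targets there serve glucose use, the barrier and iron uptake. Several of these targets also respond to other signals, Ddit4 to glucocorticoids among them.

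The HIF core, ACGTG or GCGTG on either strand, was looked for in 300 base windows running from 250 bases before to 50 after each RefSeq start on GRCm38.p6, the assembly also called mm10. Of the 10 genes, 9 had windows, 11 in all, and Ndrg1 had no entry. Matches that overlapped, as the palindrome CACGTG does on both strands, were counted as 1. The core was present in 10 of the 11 windows and in at least 1 window of each of the 9 genes. It was also present in 43.8% of all 32851 windows and in 62.0% of the 12336 windows within the same range of GC content (54.7% to 71.7%), so a match describes the letters alone. The window without a match was the upstream of the 2 Vegfa windows. The stretches below show the core in capitals for Bnip3 and Egln3, which were low in the NEC library, and for Pfkfb3 at its downstream start. Pfkfb3 was high in the PCI34051+NEC library. Also shown are Ddit4, which was high in the NEC and PCI34051+NEC libraries, and Car9, which was high in the NEC library alone.
Bnip3, chr7:138909520-138909643, minus strand: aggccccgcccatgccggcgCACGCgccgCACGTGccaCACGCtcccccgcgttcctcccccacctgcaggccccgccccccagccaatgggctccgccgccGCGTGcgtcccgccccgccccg
Egln3, chr12:54204079-54204123, minus strand: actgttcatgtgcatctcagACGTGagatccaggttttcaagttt
Pfkfb3, chr2:11502118-11502232, minus strand: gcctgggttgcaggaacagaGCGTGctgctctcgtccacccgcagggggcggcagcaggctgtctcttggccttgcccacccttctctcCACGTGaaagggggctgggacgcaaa
Ddit4, chr10:59951861-59951977, minus strand: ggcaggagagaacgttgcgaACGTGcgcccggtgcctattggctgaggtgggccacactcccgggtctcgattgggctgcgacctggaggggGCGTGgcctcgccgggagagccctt
Car9, chr4:43506996-43507024, plus strand: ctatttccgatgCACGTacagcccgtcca
Bnip3 had the most separate matches of any window here, 4, between 117 and 35 bases before its start. The single match of Car9 began 18 bases before its start, and that of Egln3 began 229 bases before. The Car9 stretch lies within a first exon in GENCODE M21, whose start for this gene is further upstream.

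Levels below are TMM-normalised read counts scaled per 1000000 (CPM), with the raw count beside them where it matters. Ratios are plain ratios of CPM with 95% intervals, which cover counting error and not the spread between pups. With 1 library a group there is no replicate check and no p-value, and each statement is about these 3 libraries. A gene was counted as higher or lower when the difference of log2(CPM + 1) reached 2-fold. Total counts were 15076413 for control, 10650638 for NEC and 16497580 for PCI34051+NEC, and mitochondrially encoded genes took 4.88%, 32.4% and 3.73% of them.

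**Figure D1:**
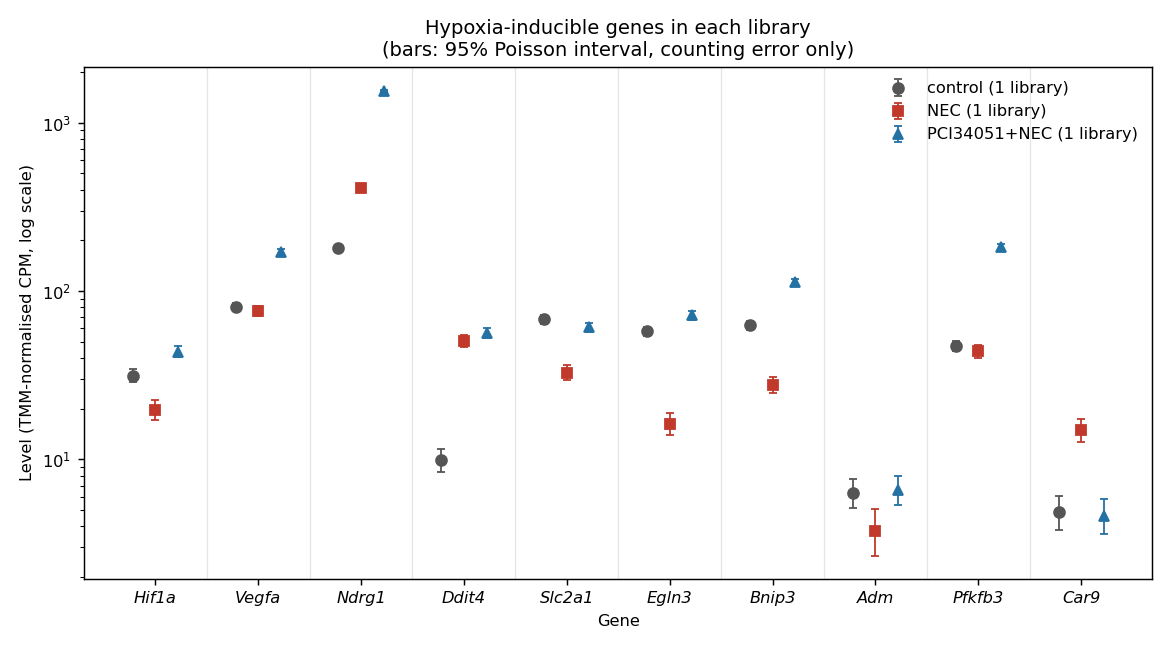
Level of each of the 10 genes (x axis) in TMM-normalised CPM on a log scale (y axis); each point is 1 library and each bar its 95% Poisson interval. The PCI34051+NEC triangles are the highest point for 8 genes, while the NEC squares are the lowest for 7 and the highest for Car9.

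Most of these genes were highest in the PCI34051+NEC library and lowest in the NEC library. The PCI34051+NEC library held the highest level of 8 of the 10, where 30.4% of the 14718 genes measured in any library were highest there; NEC (1 gene, against 42.4%) and control (1 gene, against 27.2%) held the others. The NEC library held the lowest level of 7 of the 10, against 43.7% of all measured genes, control that of 2 (26.9%) and PCI34051+NEC that of 1 (29.4%). Slc2a1 was highest in control and Car9 in NEC; Ndrg1 and Ddit4 were lowest in control, and Car9 in PCI34051+NEC. Both formula-fed libraries came from pups that met the same hypoxia, yet they lay at opposite ends for Hif1a, Vegfa, Egln3, Bnip3, Adm and Pfkfb3. They did so for Car9 too, in the reverse direction. Some of these orders are within counting error: that of NEC and control for Vegfa and Pfkfb3, and that of PCI34051+NEC and control for Adm and Car9.

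The comparison of NEC with control asked how the intestine of the model differed from that of dam-fed pups. At the 2-fold cut the 10 genes split evenly, while 7 of the 10 lay below control, Vegfa and Pfkfb3 within counting error. Ndrg1, Ddit4 and Car9 were at least 2-fold higher, 3 of 10 against 24.2% of the 14627 genes measured in this comparison. Slc2a1, Egln3 and Bnip3 were at least 2-fold lower, 3 of 10 against 22.9%. Their median log2 fold was -0.36, against -0.03 over all measured genes. The counts are thus near the background, and in either direction 47.1% of all genes were this far apart. Feeding, hypoxia and cold differed together in this comparison and cannot be told apart.

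The comparison of PCI34051+NEC with NEC asked what differed with the inhibitor when the model was the same. Here 6 of the 10 were at least 2-fold higher with PCI34051 (Hif1a, Vegfa, Ndrg1, Egln3, Bnip3 and Pfkfb3), where 25.0% of 14410 measured genes were, and 1, Car9, was lower, where 25.6% were. In either direction 7 of 10 were this far apart, against 50.6% of all genes. The median log2 fold was 1.14, against 0.01 over all genes. This comparison and the one before share the NEC library, so a level peculiar to that library enters both.

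The comparison of PCI34051+NEC with control uses the NEC library only in the scaling, and it set the treated model against dam-fed pups. Inhibitor, feeding, hypoxia and cold differed together here and cannot be told apart. Vegfa, Ndrg1, Ddit4 and Pfkfb3 were at least 2-fold higher, 4 of 10 against 6.55% of 13652 measured genes, and none was 2-fold lower, where 6.55% of all genes were, or 13.1% in either direction. The median log2 fold of the 10 was 0.65, while that of all genes was near 0. Ndrg1 stood among the most different of all genes, with 33 genes having a larger log2 fold, and Ddit4 had 83 above it and Pfkfb3 166. Vegfa fell short of 2-fold when total counts replaced the TMM scaling, with a log2 fold of 0.88. That scaling also moved the median of all genes to -0.18. With TMM factors from these 2 libraries alone, 4 of the 10 were again higher and their median was again 0.65.

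**Figure D2:**
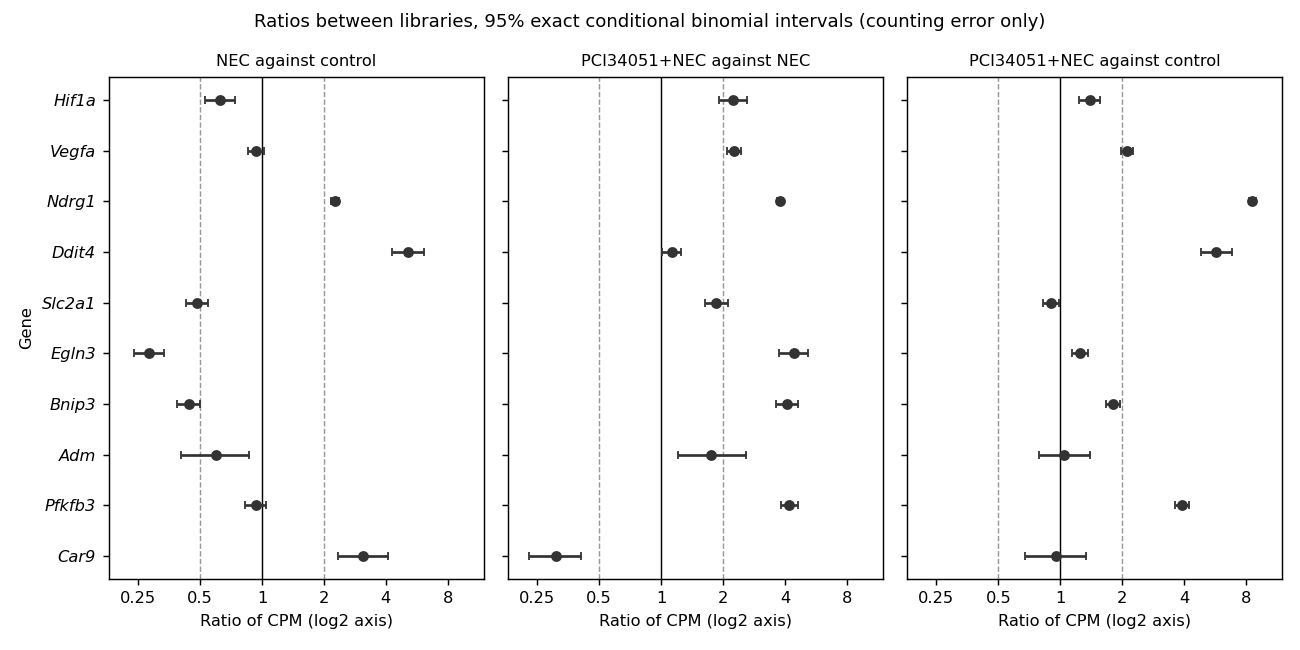
Ratio of CPM (x axis, log2 axis) for each of the 10 genes (y axis) in the 3 comparisons; bars are 95% exact conditional binomial intervals and dashed lines mark 2-fold. NEC against control scatters on both sides of 1, whereas 9 of 10 points lie above 1 in PCI34051+NEC against NEC, with Car9 the exception.

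Hif1a and Egln3 are the oxygen-regulated factor and one of the enzymes that mark it. Hif1a (ENSMUSG00000021109), on the plus strand of chromosome 12 from 73901375 to 73947530, was at 31.4 CPM in control (499 counts), 19.6 CPM in NEC (215 counts) and 43.6 CPM in PCI34051+NEC (664 counts). Its NEC level was 1.60-fold below control (1.36 to 1.89), and its PCI34051+NEC level was 2.22-fold above NEC (1.90 to 2.60) and 1.39-fold above control (1.24 to 1.56). All 3 libraries differed beyond counting error. The 2-fold difference from NEC was lost with total counts and after correction for GC content and transcript length, where the log2 fold was 0.78 at its lowest.

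Egln3, the prolyl hydroxylase PHD3 and itself a HIF target, had the lowest NEC to control ratio of the 10. Egln3 (ENSMUSG00000035105, chromosome 12, 54178981 to 54203860, minus strand) was at 57.7 CPM in control (917 counts), 16.3 CPM in NEC (179 counts) and 71.9 CPM in PCI34051+NEC (1094 counts). It was 3.53-fold lower in NEC than in control (3.004 to 4.17) and 4.40-fold higher with PCI34051 than in NEC (3.75 to 5.18). The control and PCI34051+NEC libraries were close, 1.25-fold apart (1.14 to 1.36), so the NEC library alone was low.

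Slc2a1 and Pfkfb3 serve glucose use, and they differed in pattern. Slc2a1 encodes GLUT1, a glucose carrier of many cell types, and lies on chromosome 4 (ENSMUSG00000028645, 119108711 to 119137983, plus strand). It was at 67.8 CPM in control (1078 counts), 32.8 CPM in NEC (359 counts) and 60.8 CPM in PCI34051+NEC (926 counts). The NEC level was 2.07-fold below control (1.83 to 2.34), a log2 fold of -1.03 that lay at the 2-fold line and on its other side with a pseudocount of 4 CPM or with thinned libraries. PCI34051+NEC was 1.86-fold above NEC (1.64 to 2.10) and 1.11-fold below control (1.02 to 1.22); after correction for GC content and transcript length, the former log2 fold was 1.01 in place of 0.87. Slc2a1 was thus low in the NEC library alone.

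Pfkfb3 makes fructose 2,6-bisphosphate, an activator of glycolysis. Pfkfb3 (ENSMUSG00000026773, chromosome 2, 11471433 to 11554077, minus strand) was at 47.1 CPM in control (749 counts), 43.8 CPM in NEC (480 counts) and 184 CPM in PCI34051+NEC (2795 counts). Control and NEC differed by less than counting error, with a ratio of 0.930 (0.828 to 1.04). PCI34051+NEC stood apart from both, 4.19-fold above NEC (3.80 to 4.62) and 3.90-fold above control (3.59 to 4.23). Its relative Pfkfb4, from the list of glycolytic targets, had the same order of libraries for the top place, at 80.2, 99.5 and 222 CPM in control, NEC and PCI34051+NEC.

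Vegfa and Adm encode secreted signals to vessels. Vegfa, the main angiogenic growth factor (ENSMUSG00000023951, chromosome 17, 46016993 to 46032369, minus strand), was at 81.0 CPM in control (1287 counts), 75.9 CPM in NEC (831 counts) and 171 CPM in PCI34051+NEC (2604 counts). NEC and control were within counting error of each other, with a ratio of 0.937 (0.858 to 1.02). The PCI34051+NEC level was 2.25-fold above NEC (2.08 to 2.44) and 2.11-fold above control (1.98 to 2.26).

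Adm, the peptide adrenomedullin, was scarce in every library. Adm (ENSMUSG00000030790), on the plus strand of chromosome 7 from 110627661 to 110629820, was at 6.29 CPM in control (100 counts), 3.74 CPM in NEC (41 counts) and 6.57 CPM in PCI34051+NEC (100 counts). It was 1.68-fold lower in NEC than in control (1.16 to 2.48), and the difference of PCI34051+NEC from control was within counting error, at a ratio of 1.04 (0.783 to 1.39). No comparison put Adm 2-fold apart.

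Bnip3 and Car9 act downstream on mitochondria and on acid. Bnip3, a receptor that directs mitochondria to autophagy (ENSMUSG00000078566, chromosome 7, 138890836 to 138909519, minus strand), was at 62.8 CPM in control (998 counts), 27.7 CPM in NEC (303 counts) and 113 CPM in PCI34051+NEC (1718 counts). NEC was 2.27-fold below control (1.99 to 2.59), and PCI34051+NEC was 4.08-fold above NEC (3.61 to 4.62) and 1.80-fold above control (1.66 to 1.95). The 3 libraries were therefore spread in the same order as for Hif1a. After correction for GC content and transcript length, the log2 fold of Bnip3 in NEC against control was -0.60 in place of -1.15.

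Car9, a carbonic anhydrase at the cell surface that is widely used as a hypoxia marker, alone was lower in PCI34051+NEC than in NEC. In NEC against control it was higher, as Ndrg1 and Ddit4 were. Car9 (ENSMUSG00000028463), on the plus strand of chromosome 4 from 43506966 to 43513729, was at 4.84 CPM in control (77 counts), 15.0 CPM in NEC (164 counts) and 4.60 CPM in PCI34051+NEC (70 counts). It was 3.09-fold higher in NEC than in control (2.34 to 4.11) and 3.26-fold lower with PCI34051 than in NEC (2.45 to 4.37). Control and PCI34051+NEC were within counting error, with a ratio of 0.949 (0.677 to 1.33), so the NEC library alone was high.

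Ndrg1 and Ddit4 were the 2 genes higher than control in both formula-fed libraries at 2-fold or more. Ndrg1, a gene induced by hypoxia and by differentiation (ENSMUSG00000005125, chromosome 15, 66929318 to 66969640, minus strand), was at 181 CPM in control (2871 counts), 408 CPM in NEC (4472 counts) and 1548 CPM in PCI34051+NEC (23564 counts). Each step was beyond counting error: NEC was 2.26-fold above control (2.16 to 2.37), and PCI34051+NEC was 3.79-fold above NEC (3.67 to 3.91) and 8.57-fold above control (8.24 to 8.91). Per kilobase of exon, Ndrg1 was the most abundant of the 10 in NEC (61.9 CPM per kb) and PCI34051+NEC (235 CPM per kb), while in control Bnip3 (27.7 CPM per kb) and Ndrg1 (27.4 CPM per kb) were close.

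Ddit4, also called REDD1, restrains the growth kinase mTORC1 under stress. Ddit4 (ENSMUSG00000020108, chromosome 10, 59949669 to 59951834, minus strand) was at 9.88 CPM in control (157 counts), 50.4 CPM in NEC (552 counts) and 56.6 CPM in PCI34051+NEC (862 counts). It was 5.10-fold above control in NEC (4.27 to 6.13) and 5.73-fold above control in PCI34051+NEC (4.83 to 6.84). The formula-fed libraries differed from each other by 1.12-fold (1.01 to 1.25), so both stood well above control and close to each other.

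Markers of cell types and of another hormone response moved between the same libraries. Of 10 epithelial markers, all of them detected in every library, 5 were lower by 2-fold or more in NEC than in control (22.9% over all genes) and 2 were higher (24.2%), and their summed level was 7199, 3278 and 7577 CPM in control, NEC and PCI34051+NEC. Epcam, an epithelial adhesion molecule, was at 2731, 404 and 2797 CPM. The 2 that were higher in NEC were the keratins Krt19 (54.2, 638 and 117 CPM) and Krt20 (15.9, 54.8 and 82.8 CPM). These 3 markers were picked after their values were seen. Smooth muscle went the other way, with 8 of 10 markers at least 2-fold higher in NEC and a summed level of 1855, 12408 and 1678 CPM. Fibroblast markers summed to 776, 2697 and 728 CPM (5 of 7 higher in NEC), and neuron and glia markers to 69.1, 393 and 64.8 CPM (6 of 7 measured higher in NEC). Hif1a, Slc2a1, Egln3, Bnip3 and Adm were lowest in the NEC library beyond counting error, and Car9 was highest there. Vegfa and Pfkfb3 were lowest there too, but within counting error of control. These lists also had the NEC library at the extreme, and the part of tissue composition in the values of the 10 genes was not tested. In whole tissue, fewer cells of a type and less RNA per cell cannot be told apart.

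The 11 glucocorticoid targets on the list were, as a sum, ordered as Ndrg1 was, with 960, 3754 and 9083 CPM in control, NEC and PCI34051+NEC. Mt1 (478, 1672 and 3978 CPM) and Mt2 (111, 846 and 1787 CPM) made up most of that sum. Not every gene had that order. Per1 (29.6, 260 and 180 CPM) and Dusp1 (15.5, 28.9 and 24.4 CPM) were highest in NEC. Cdkn1a (88.8, 60.5 and 239 CPM) was lowest in NEC. In NEC against control 7 of 11 were at least 2-fold higher and none lower, where 24.2% and 22.9% of all genes were. In PCI34051+NEC against control 10 of 11 were higher and none lower, against 6.55% each way over all genes. Fkbp5, a chaperone partner of that hormone's receptor, was at 5.35, 292 and 471 CPM, and Sgk1, a kinase that phosphorylates NDRG1, was at 140, 269 and 1365 CPM. Whether this response had a part in the levels of Ndrg1, Ddit4, Pfkfb3 or Vegfa was not tested. Of the remaining marker lists, endothelial genes summed to 181, 378 and 201 CPM. Macrophage genes summed to 544, 206 and 259 CPM, of which Csf1r alone gave 406, 58.8 and 160 CPM. In NEC against control 1 of the 9 macrophage genes was higher and 2 were lower by 2-fold or more, with a median log2 fold of 0.12. Erythroid genes summed to 116, 183 and 247 CPM, of which the globin gene Hba-a1 gave 49.4, 123 and 115 CPM. In NEC against control 1 of the 5 measured erythroid genes was 2-fold higher and none lower, with a median log2 fold of -0.25. Csf1r and Hba-a1 were picked after their values were seen.

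**Figure D3:**
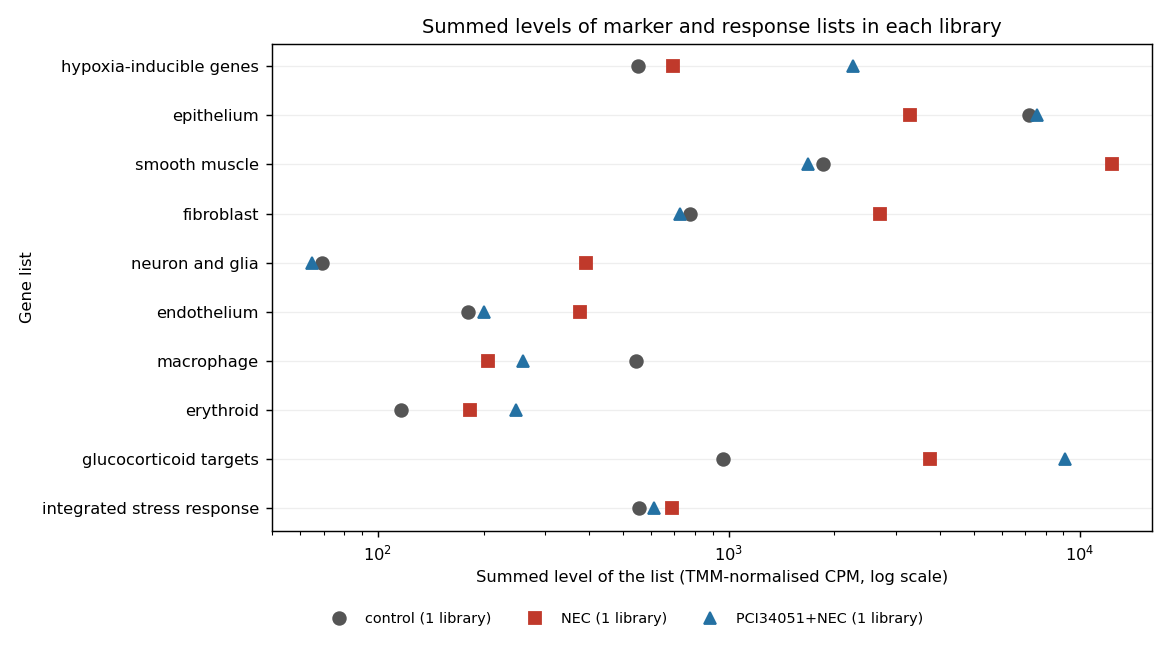
Summed level of each gene list (y axis) in TMM-normalised CPM on a log scale (x axis); each symbol is 1 library. Epithelial, smooth muscle, fibroblast and neuronal lists set the NEC square apart from the other libraries. The sums of the hypoxia-inducible genes and of the glucocorticoid targets are highest in PCI34051+NEC. Ndrg1 gave 181, 408 and 1548 CPM of the hypoxia-inducible sum of 549, 694 and 2260 CPM in control, NEC and PCI34051+NEC. By single genes, NEC was lowest for 7 of the 10.

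Several genes that regulate HIF were lower in NEC and near control with PCI34051. Of 17 such genes, Hif1a and Egln3 included, 6 were at least 2-fold lower in NEC than in control and none higher, where 22.9% and 24.2% of all genes were, with a median log2 fold of -0.84. Hif1an, the asparagine hydroxylase that blunts HIF activity, was at 80.9, 22.1 and 104 CPM in control, NEC and PCI34051+NEC, and Arnt, the partner of the alpha subunit, at 58.5, 19.0 and 71.6 CPM. Epas1, which encodes HIF-2 alpha, was at 74.6, 34.6 and 70.4 CPM. Against NEC, 9 of the 17 were at least 2-fold higher with PCI34051 and none lower, where 25.0% and 25.6% of all genes were. With total counts as the scaling 5 of the 17 were higher, which is near the share over all genes. None of the 17 was 2-fold apart in PCI34051+NEC against control, against 13.1% of all genes.

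Members of this machinery were not all low in NEC. Hif3a, a relative that can oppose HIF-1, was at 113, 221 and 187 CPM, higher than control in both formula-fed libraries. The prolyl hydroxylases Egln1 (66.3, 52.3 and 65.7 CPM) and Egln2 (111, 60.1 and 117 CPM) and the ubiquitin ligase subunit Vhl (29.9, 16.3 and 28.6 CPM) were under 2-fold apart in every comparison. Rbx1 and Elob, further parts of that ligase, had levels of 67.0, 74.8 and 55.3 CPM (Rbx1) and of 115, 155 and 120 CPM (Elob). Cul2, another part of it, was at 48.6, 20.2 and 43.2 CPM, 2.41-fold lower in NEC than in control (2.07 to 2.81).

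Glycolytic targets were mixed. In NEC against control 5 of 17 were lower by 2-fold or more and 3 were higher, counts near the shares over all genes (22.9% and 24.2%). In PCI34051+NEC against NEC 6 were higher and 5 lower (25.0% and 25.6% over all genes), with a median log2 fold of 0.59. Pfkfb4 alone was 2-fold apart in PCI34051+NEC against control, against 13.1% of all genes. Ldha, the muscle-type lactate dehydrogenase subunit, was at 859, 190 and 803 CPM in control, NEC and PCI34051+NEC. Tpi1, triose phosphate isomerase, was at 318, 75.7 and 319 CPM, and Pgk1, phosphoglycerate kinase, at 42.3, 13.97 and 56.5 CPM. Hk1 (10.2, 34.1 and 9.20 CPM) and Gpi1 (129, 373 and 137 CPM), enzymes of the first steps, were high in NEC instead. Several glycolytic genes, Gapdh among them, have near-identical pseudogene copies that could take their reads, so their levels are uncertain.

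Other HIF targets were mixed as well. Of 28 measured in NEC against control, 9 were higher by 2-fold or more and 9 were lower, where 24.2% and 22.9% of all genes were, and the median log2 fold was -0.03, as it was over all genes. Those higher included the collagen cross-linking enzymes Lox (6.17, 49.8 and 11.2 CPM in control, NEC and PCI34051+NEC) and Plod2 (8.49, 46.2 and 5.19 CPM) and the collagen prolyl hydroxylase P4ha2 (2.52, 15.0 and 4.01 CPM), all nearer to control with PCI34051. Among those lower were Bhlhe40, a transcriptional repressor of the clock (341, 65.1 and 290 CPM), Ero1l, an oxidase of protein folding (104, 32.5 and 146 CPM), and Plod1 (160, 24.8 and 72.9 CPM). In PCI34051+NEC against control 5 of 27 were higher and 3 lower, against 6.55% each way over all genes.

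Several of these targets were highest in the PCI34051+NEC library, as Ndrg1 was and as 30.4% of all measured genes were. They were Angptl4, Vldlr, Higd1a, Fam162a, Ero1l, Ccng2, Bnip3l, Igfbp3, Car12, Nos2 and Mxi1. Some of these leads were small, as for Mxi1 (104, 60.7 and 109 CPM in control, NEC and PCI34051+NEC). Angptl4, an inhibitor of lipoprotein lipase, was at 7.74, 58.0 and 79.9 CPM in control, NEC and PCI34051+NEC, 10.3-fold above control in the last (8.58 to 12.5). Vldlr, a lipoprotein receptor, was at 4.78, 21.3 and 57.5 CPM, and the mitochondrial protein gene Higd1a at 10.6, 24.1 and 42.8 CPM. Fam162a was at 58.6, 45.7 and 131 CPM, the order seen for Vegfa. Ankrd37, also a HIF target, was instead below control in both, at 15.7, 5.48 and 5.52 CPM.

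The main iron transporters, which HIF-2 controls in the intestine, were below control in both formula-fed libraries. Slc11a2, the apical iron transporter DMT1, was at 968, 44.5 and 193 CPM in control, NEC and PCI34051+NEC, which put NEC 21.8-fold (19.9 to 23.9) and PCI34051+NEC 5.02-fold (4.83 to 5.23) below control. Slc40a1, the exporter ferroportin, was at 997, 53.1 and 578 CPM. Of the 4 genes listed, 3 were at least 2-fold lower in NEC than in control, against 22.9% over all genes. Tfrc, the transferrin receptor, was at 51.3, 19.0 and 27.7 CPM, while Cybrd1, an iron reductase, was at 8.998, 5.84 and 13.1 CPM. Against NEC, 3 of the 4 were at least 2-fold higher in PCI34051+NEC and none lower, where 25.0% and 25.6% of all genes were. Their median log2 fold in that comparison was 1.57. Set against control, Slc11a2, Slc40a1 and Tfrc did not share the high PCI34051+NEC level of Ndrg1, Pfkfb3 or Vegfa.

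Some barrier targets of HIF were, like Pfkfb3, highest in PCI34051+NEC. Of 8 genes, 4 were at least 2-fold higher in PCI34051+NEC than in control and none lower, where 6.55% of all genes were in each direction. Muc3, a membrane mucin, was at 282, 301 and 1422 CPM in control, NEC and PCI34051+NEC, and Nt5e, the enzyme CD73 that makes adenosine, at 143, 59.8 and 344 CPM. Adora2b, an adenosine receptor, had 26, 21 and 240 counts, or 1.64, 1.92 and 15.8 CPM. Tff3, the trefoil peptide of goblet cells, was at 214, 83.9 and 143 CPM and was highest in control.

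Several receptor genes for the 2 secreted signals were highest in NEC, unlike Vegfa and Adm. Of 9 VEGF family and receptor genes, 5 were higher by 2-fold or more in NEC than in control and 1 was lower, where 24.2% and 22.9% of all genes were. The 5 include Vegfd and Pgf, which encode growth factors and not receptors. Nrp1, a VEGF co-receptor, was at 7.17, 96.2 and 11.2 CPM in control, NEC and PCI34051+NEC, and Pgf, placental growth factor, at 1.13, 17.9 and 0.723 CPM. Kdr, the main signalling receptor for VEGF-A, was at 25.6, 26.9 and 34.7 CPM, and Flt1 at 9.69, 18.5 and 27.3 CPM. Unlike Nrp1, Kdr and Flt1 were highest in PCI34051+NEC, as Vegfa was. The 4 genes listed under the adrenomedullin receptor were Calcrl and its partners Ramp1, Ramp2 and Ramp3. All 4 were at least 2-fold higher in NEC than in control, among them Calcrl (5.22, 21.2 and 10.9 CPM) and Ramp2 (7.86, 27.2 and 12.7 CPM). Endothelial markers, in which Kdr and Flt1 are also listed, were 2-fold higher for 3 of 10 genes in NEC, and their part in the receptor levels was not tested.

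**Figure D4:**
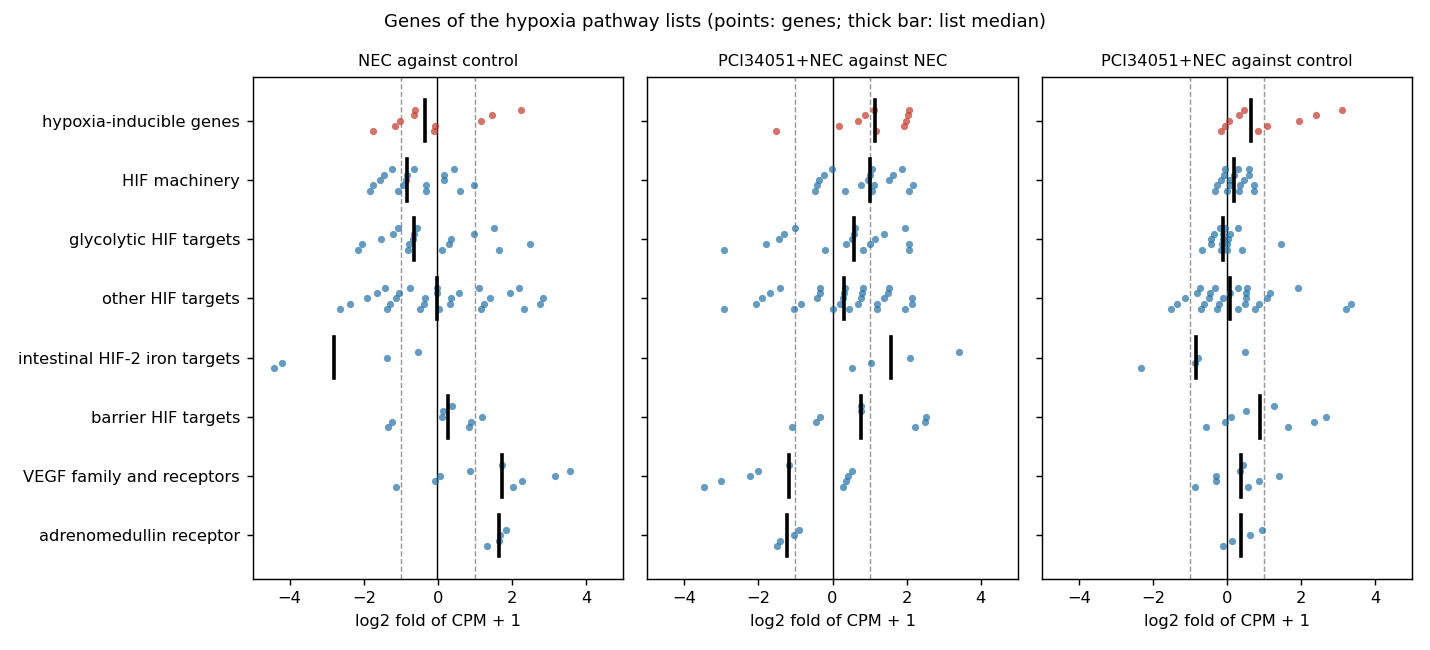
Log2 fold of CPM + 1 (x axis) for every measured gene of the hypoxia-inducible genes and of 7 pathway lists (y axis) in the 3 comparisons; points are genes, thick bars list medians, dashed lines 2-fold, and the thin line the median of all genes. In PCI34051+NEC against control the hypoxia-inducible genes have a median of 0.65 and the glycolytic targets one of -0.10.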

How the data were processed

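Total RNA of mouse intestine was sequenced as paired-end reads, 1 library for each of 3 groups, per the labels' protocols. The authors deposited raw read counts per gene symbol in 1 table, named for HTSeq. Per the submitters' processing notes the genome was mm10. The aligner, annotation and strand setting were not given in the sources used here. The inhibitor column's name differed from its sample's description in the letters before +NEC7 and was assigned because no other label held that name, so every PCI34051+NEC value rests on it. Annotated exons of other genes overlap those of Hif1a, Ndrg1, Slc2a1, Bnip3 and Car9, mostly antisense, so reads there could be lost or shared.

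Library scaling used TMM (edgeR 4.0.16 under R 4.3.3). Genes counted as measured had 1 CPM or more in a library compared. Ratio intervals are exact conditional binomial, and level intervals exact Poisson. No molecular identifiers are mentioned, so copies made by PCR may count as separate reads, and intervals cover counting error alone. With 1 library per group no test was made. GENCODE M21 matched 21926 of 21983 symbols and gave coordinates and exon lengths; promoters are from RefSeq. The procedure was tested on simulated data. Alternatives used DESeq2 1.42.0 size factors, total counts, TMM without the 50 most abundant and mitochondrial genes, pseudocounts of 0.25 and 4 CPM, no filter, a 5 CPM filter, thinning, a 1.5-fold threshold and removal of the GC content and length trend. PCI34051+NEC against control was also scaled by TMM over those 2 libraries alone. Members and lists were chosen with earlier results of these data known. All 10 members are named, and of the hypoxia lists up to 4 genes each way that differed most among those reaching 5 CPM, and any sensing gene. The barrier, VEGF and adrenomedullin receptor genes, Tff3, Kdr, Epcam, Fkbp5 and Sgk1 were named after their values were seen. So were Mt1, Mt2, Per1, Dusp1 and Cdkn1a. Of the other HIF targets, every measured gene highest in PCI34051+NEC is named too. Python 3.11.15 with pandas 2.3.3 and scipy 1.17.1 was used.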

Additional observations from a re-analysis of the deposited data

How the results depend on the processing

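No paired analysis was possible because each group has 1 library. Across scaling, pseudocount, filter, thinning and trend removal, 279 values of single genes were recomputed, and 255 stayed within the counting interval of the reported value. The filter settings only choose which genes are kept and leave a gene's own value unchanged. Their values are counted among the 255 although they could not move. None of the differences of 2-fold or more changed direction. The sign turned only for 2 near-zero values in PCI34051+NEC against control, Adm with total counts (-0.11 on the log2 scale) and Car9 with thinned libraries or the GC content and length trend removed (0.18 at its highest). With a 1.5-fold threshold, 5 of the 10 genes were lower in NEC than in control in place of 3, and 3 were higher as before. At that threshold 68.5% of all measured genes were called in either direction, against 47.1% at 2-fold. The median of the 10 in PCI34051+NEC against control, 0.65, was 0.46 with total counts, which moved the median of all genes to -0.18, and 0.84 with a 5 CPM filter, which left 9 genes. The cause of the remaining shifts was not tested. Depth limits Adm and Car9 most, with 41 to 164 counts a library, and the lack of replicates limits every comparison.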

Other observations

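Genes of the integrated stress response, which also induces Ddit4 and Vegfa in many cells, were mixed. The 11 listed genes summed to 556, 691 and 613 CPM in control, NEC and PCI34051+NEC. In NEC against control 1 was at least 2-fold higher (24.2% over all genes) and 3 were lower (22.9%), with a median log2 fold of 0.03. In PCI34051+NEC against NEC 3 were higher (25.0%) and none lower (25.6%), with a median of 0.17, or 5 higher and a median of 0.58 after correction for GC content and transcript length. In PCI34051+NEC against control 2 were higher and 1 was lower (6.55% each way), with a median of 0.35. Trib3, a target of this response, was at 6.23, 10.7 and 19.97 CPM and was highest in PCI34051+NEC, as Ddit4 and Vegfa were. Atf4, its central transcription factor, was at 179, 346 and 228 CPM, and Ppp1r15a, which restores translation, at 16.3, 61.1 and 34.8 CPM, both highest in NEC. Sesn2, an inhibitor of mTORC1 like Ddit4, was at 116, 11.6 and 47.0 CPM and was highest in control. These 4 genes were picked after their values were seen, and the part of this response in the levels of Ddit4 and Vegfa was not tested.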
